A study of Mus musculus with 12 samples.

Results

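Callosal projection neurons and rostral subcortical projection neurons of the embryonic mouse cortex were compared within each of 11 embryos. The members were all nuclei that the authors had placed in Cluster 1, which they named Callosal PN, and in Cluster 4, named Rostral Subcortical PN. Cluster 1 held 4366 nuclei and Cluster 4 held 3884, together 8250 of the 50550 nuclei in 25 clusters, and each embryo gave 209 to 672 nuclei of Cluster 1 and 203 to 615 of Cluster 4. The measurement was single-nucleus RNA-sequencing of cerebral cortex from C57BL/6J embryos at embryonic day 14, in which each captured RNA molecule is counted as a unique molecular identifier (UMI). All embryos were of this same inbred strain with no added allele, and their dams had been injected daily during mid-gestation. The 5 saline embryos came from dams S1 (S1-1, S1-2) and S2 (S2-1, S2-2, S2-4) given saline. The 6 EtOH embryos came from dams E1 (E1-1, E1-2) and E2 (E2-1 to E2-4) given ethanol (EtOH) diluted in saline. Dams S1 and E1 formed batch 1 and dams S2 and E2 formed batch 2, so that each treatment rested on 2 litters. A further saline sample listed as S2-3 was not used here. The authors state that they removed 1 saline sample because its nuclei were distributed over the clusters unlike those of the other samples.

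Projection neurons are the excitatory, long-axon neurons of the cortex, born from radial glia and intermediate progenitors of the dorsal forebrain. Callosal neurons send axons across the corpus callosum to the other hemisphere. Subcortical neurons send axons to the thalamus, brainstem or spinal cord, and depend on Fezf2, Bcl11b (Ctip2), Tbr1 and Sox5, and the callosal and subcortical programmes repress each other in part. At embryonic day 14 deep-layer subcortical neurons are already settled in the cortical plate, while many callosal neurons of the upper layers are still being born or migrating.

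For each embryo the UMIs of all nuclei of a cluster were added up. Levels are given as CPM, the counts of a gene per 1e+06 UMIs of that embryo and cluster, with the mean ± SD over the 11 embryos. Differences are given as log2 of Cluster 4 over Cluster 1 from the edgeR quasi-likelihood fit with the embryo as a block, ± the standard error. A gene was called when its Benjamini-Hochberg adjusted p was under 0.05 and its log2 difference above 0.32 or below -0.32, which are the fold thresholds of the study. The authors formed the clusters from the expression of these same nuclei, so a call describes the size of a difference against its spread between embryos and is not a test of whether the populations differ. Libraries summed to 1381932 to 6664736 UMIs in Cluster 1 and 1681417 to 8910835 in Cluster 4. No nucleus barcode was repeated across embryos in its full form, and 9 of the 8240 barcode sequences of the clusters occurred in more than 1 embryo.

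Embryos S2-1 and S2-2, littermates in the saline group, stood apart from the other 9. Over 4737 genes at 30 CPM or more, their deviations from the mean Cluster 4 minus Cluster 1 difference correlated at 0.495, while the highest value among the 54 other pairs of embryos was 0.221. Among the genes named, differences that moved most when these embryos were left out are given below with and without them.

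Markers behind the labels were measured first. Fezf2 ranged from 32.2 to 49.9 CPM in Cluster 1, with a median of 40.6, and from 58.1 to 101.6 CPM in Cluster 4, with a median of 75.1. It was higher in Cluster 4 in 11 of 11 embryos without overlap, by 2.21-fold (log2 1.15 ± 0.05, edgeR adjusted p = 2.49e-17), and Cluster 4 had the highest mean of all 25 clusters. Mc4r, a melanocortin receptor used for the rostral label, was too sparse to be tested. It gave 0 to 4 UMIs per embryo in Cluster 1 and 3 to 59 in Cluster 4, and its CPM was higher in Cluster 4 in 11 embryos, with the lowest Cluster 4 levels in S2-1 and S2-2. Crym, a thyroid-hormone-binding protein used for the caudal label of Cluster 16, was likewise not tested. Its mean CPM was 1.54 in Cluster 1, 5.09 in Cluster 4 and 33.8 in Cluster 16.

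In single nuclei thinned to 2000 UMIs each, to set the clusters at 1 depth, Fezf2 was detected in 7.46% of Cluster 1 and 13.9% of Cluster 4 nuclei, as means over embryos. In the interneurons of Cluster 5, which should lack it, the share was 0.898%. Before thinning the shares in Clusters 1 and 4 were 21.3% and 47.5%, at median depths per embryo of 3987.5 to 8665 UMIs in Cluster 1 and 5239 to 12753 UMIs in Cluster 4, beside 4140 to 8558 UMIs in Cluster 5. The thinning left out 20 of 4366 Cluster 1 nuclei and 16 of 3884 Cluster 4 nuclei with fewer than 2000 UMIs. Fezf2 was thus also detected in Cluster 1 nuclei, at a share above that of the interneurons.

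Of 23513 genes in the files, 10884 were tested. 2121 of them (19.5%) were higher in Cluster 4 and 1534 (14.1%) were higher in Cluster 1. With libraries scaled to total UMIs in place of trimmed means of M-values (TMM), 1495 genes were higher in Cluster 4 and 3389 in Cluster 1, so the share of calls higher in Cluster 4 went from 58.0% to 30.6% as the median log2 difference over all genes moved from -0.02 to -0.19, a shift of -0.17. The larger differences lay toward Cluster 4: 714 genes were over 2-fold higher there and 216 over 2-fold higher in Cluster 1, and over 8-fold the counts were 72 and 5. The genes differed in length as well. The median genomic span of all tested genes was 32.1 kb, against 62.2 kb for those higher in Cluster 4 and 28.4 kb for those higher in Cluster 1. Spans of 100 kb or more made up 38.2% of the genes higher in Cluster 4, 22.01% of those higher in Cluster 1 and 19.8% of all tested genes. Of the 2128 tested genes with such spans, 801 were higher in Cluster 4 and 335 in Cluster 1. The gene lists below are set beside all tested genes and not beside genes of like length, and the part of length in their counts was not tested.

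**Figure D1:**
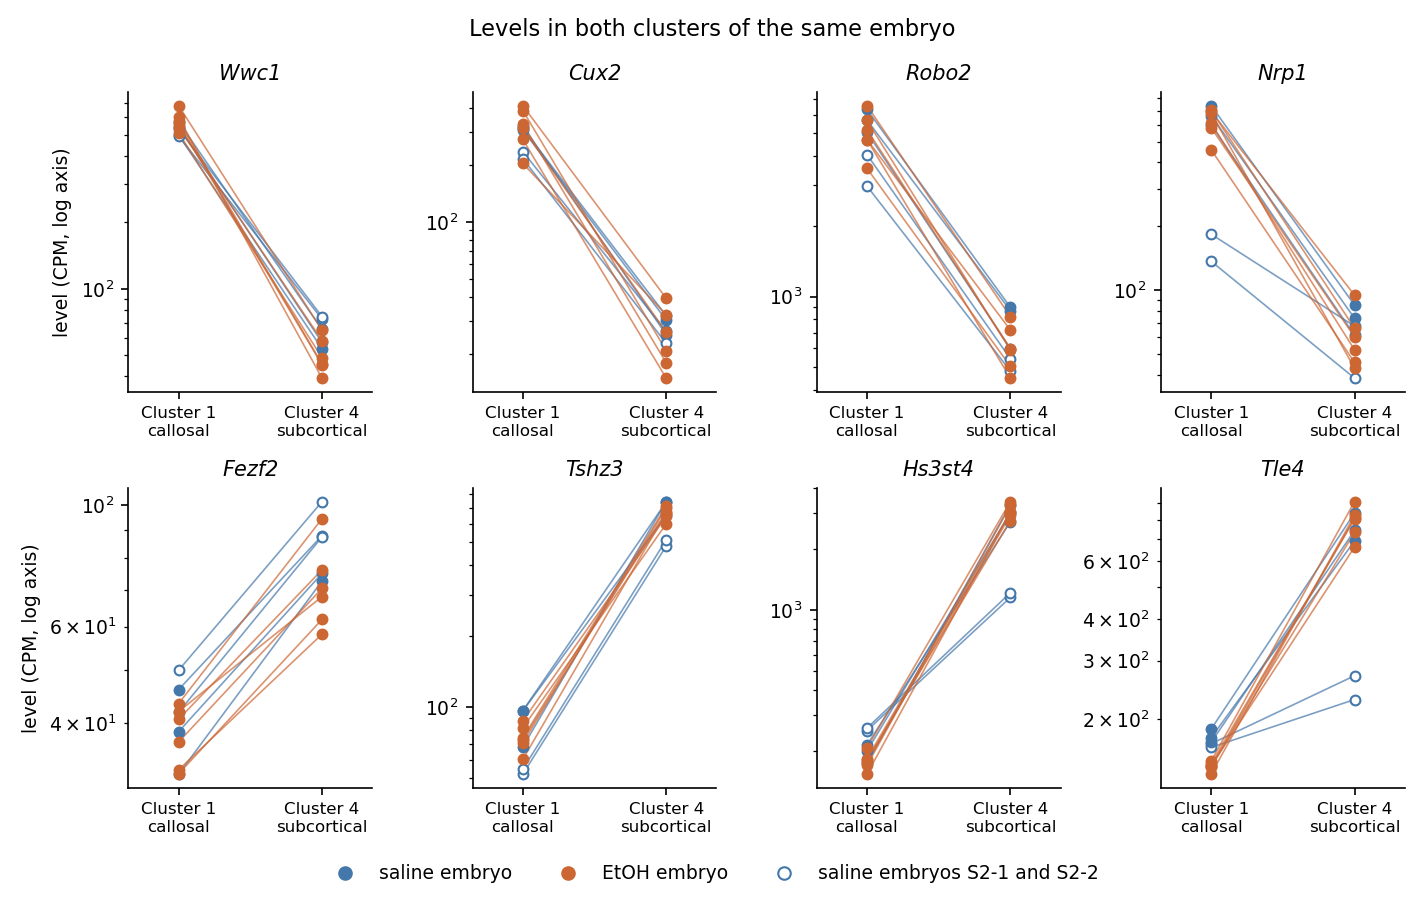
Level of 8 genes in Cluster 1 and Cluster 4 of the same embryo, in CPM on a log axis, with a line for each of the 11 embryos and open circles for S2-1 and S2-2. Wwc1, Cux2, Robo2 and Nrp1 fall from Cluster 1 to Cluster 4 in every embryo, and Fezf2, Tshz3, Hs3st4 and Tle4 rise, with the smallest rise of Tle4 in S2-1 and S2-2.

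Of the 12 callosal and upper-layer transcription factors on the list, 9 were higher in Cluster 1 and 3 in Cluster 4, against 14.1% and 19.5% of all tested genes, with a median log2 difference of -1.31 against -0.02 over all genes. Cux2, a cut-homeobox protein of upper-layer neurons, had the largest difference. It lay between 203.8 and 412.4 CPM in Cluster 1, with a median of 312.5, and between 14.9 and 39.4 CPM in Cluster 4, with a median of 26.04. No embryo overlapped and the level was 9.91-fold higher in Cluster 1 (log2 -3.31 ± 0.12, edgeR adjusted p = 6.87e-10). In nuclei thinned to 2000 UMIs it was detected in 33.0% of Cluster 1 and 3.497% of Cluster 4, and in 64.2% of the interneurons of Cluster 5 (51.3%, 12.3% and 82.7% before thinning), where its mean of 770.5 CPM was the highest of all clusters. Its relative Cux1 was 354.0 ± 98.7 CPM in Cluster 1, against 86.7 ± 16.4 CPM in Cluster 4 (log2 -1.82). The POU-domain factors Pou3f1, Pou3f2 (Brn2) and Pou3f3 (Brn1), which act in upper-layer neuron production and migration, differed by -1.996, -0.94 and -0.97 on the log2 scale. Lhx2, a LIM-homeodomain factor of cortical progenitors and neurons, differed by -1.77 (-2.02 without S2-1 and S2-2), and Bhlhe22, a basic helix-loop-helix factor of area and layer identity, by -1.71. Lmo4, a LIM-only cofactor, had the smallest difference of the 9, at -0.66.

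The 3 listed factors that were higher in Cluster 4 were Mef2c, Rorb and Ski. Mef2c, a MADS-box factor of neuronal differentiation, lay between 290.7 and 397.9 CPM in Cluster 1 and between 876.7 and 1202.5 CPM in Cluster 4, without overlap, with medians of 324.9 and 1049.0 CPM. It was 3.53-fold higher in Cluster 4 (log2 1.82 ± 0.06, edgeR adjusted p = 1.74e-11). Rorb, a nuclear receptor best known from layer 4 later in development, had a mean of 167.5 ± 39.0 CPM in Cluster 1, against 405.8 ± 114.2 CPM in Cluster 4 (log2 1.43). Its ranges overlapped between the clusters, but it was higher in Cluster 4 within each of the 11 embryos. Ski, a transcriptional co-repressor, differed by 0.49.

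Of the 16 corticofugal transcription factors, which act in neurons projecting out of the cortex, 10 were higher in Cluster 4 and none in Cluster 1, against 19.5% and 14.1% of all tested genes, with a median of 1.00. The counts of both factor lists were the same under total-UMI scaling and without S2-1 and S2-2. Tshz3, a zinc-finger homeobox protein of cortical projection neurons, had the largest difference. It ranged from 52.1 to 96.8 CPM in Cluster 1, with a median of 72.9, and from 482.7 to 744.6 CPM in Cluster 4, with a median of 668.2. No embryo overlapped, and the level was 9.94-fold higher in Cluster 4 (log2 3.31 ± 0.07, edgeR adjusted p = 6.66e-15). Cluster 4 had the highest mean of the 25 clusters, and Cluster 22, the other callosal cluster, had a mean of 571.8 CPM. Foxo1, a forkhead factor, rose from 3.26 to 15.1 CPM on average (log2 2.23). Tox, an HMG-box factor, was 358.6 ± 56.3 CPM in Cluster 1, against 1020.6 ± 108.1 CPM in Cluster 4 (log2 1.69). Zfpm2 (Fog2), a GATA cofactor of corticothalamic neurons, differed by 1.78, and Ldb2, a LIM-domain-binding cofactor of deep-layer neurons, by 1.15.

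Tle4, a Groucho co-repressor of corticothalamic neurons, and Foxp2, a forkhead factor of layer 6, depended on the embryo. Tle4 in Cluster 4 was 270.0 CPM in S2-1 and 228.7 CPM in S2-2, and 661.9 to 907.8 CPM in the other 9 embryos. In Cluster 1 it lay between 136.0 and 186.2 CPM, below Cluster 4 in each embryo (log2 2.19 ± 0.23, edgeR adjusted p = 9.65e-06), and without S2-1 and S2-2 the difference was 2.47. Foxp2 was higher in Cluster 4 in 9 embryos (652.7 to 940.2 CPM against 213.5 to 335.9 CPM in Cluster 1). In S2-1 the Cluster 4 level was 336.0 and the Cluster 1 level 348.2 CPM, and in S2-2 they were 273.9 and 326.7 CPM. CPM are scaled to total UMIs and the fitted differences to TMM, and the sign of a gap as small as that in S2-1 can depend on this choice. The pooled log2 difference of 1.49 ± 0.23 was called (edgeR adjusted p = 0.000222) and became 1.78 without these embryos. In saline embryos alone it was 1.05 and was not called (edgeR adjusted p = 0.135).

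Of the factors named above on which subcortical neurons depend, Fezf2 differed by 1.15, and Sox5, Tbr1 and Bcl11b differed less. Sox5, an SRY-box factor that postpones the production of later subcortical types, was present in both clusters, at 5652.9 ± 464.2 CPM in Cluster 1, against 9103.0 ± 381.9 CPM in Cluster 4 (log2 0.86). Tbr1, a T-box factor of corticothalamic neurons, differed by 0.66. Bcl11b, a zinc-finger factor of corticospinal neurons, was 1138.8 ± 150.6 CPM in Cluster 1, against 1200.2 ± 167.1 CPM in Cluster 4. Its ranges overlapped, and its log2 difference of 0.25 ± 0.03 had an edgeR adjusted p of 2.66e-08 but was under the fold threshold. Nfia (0.25) and Bcl11a (-0.15) were also under that threshold, and Etv1 (0.35, edgeR adjusted p = 0.235), Nfib (-0.01, 0.846) and Otx1 (0.04, 0.853) missed the p threshold.

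**Figure D2:**
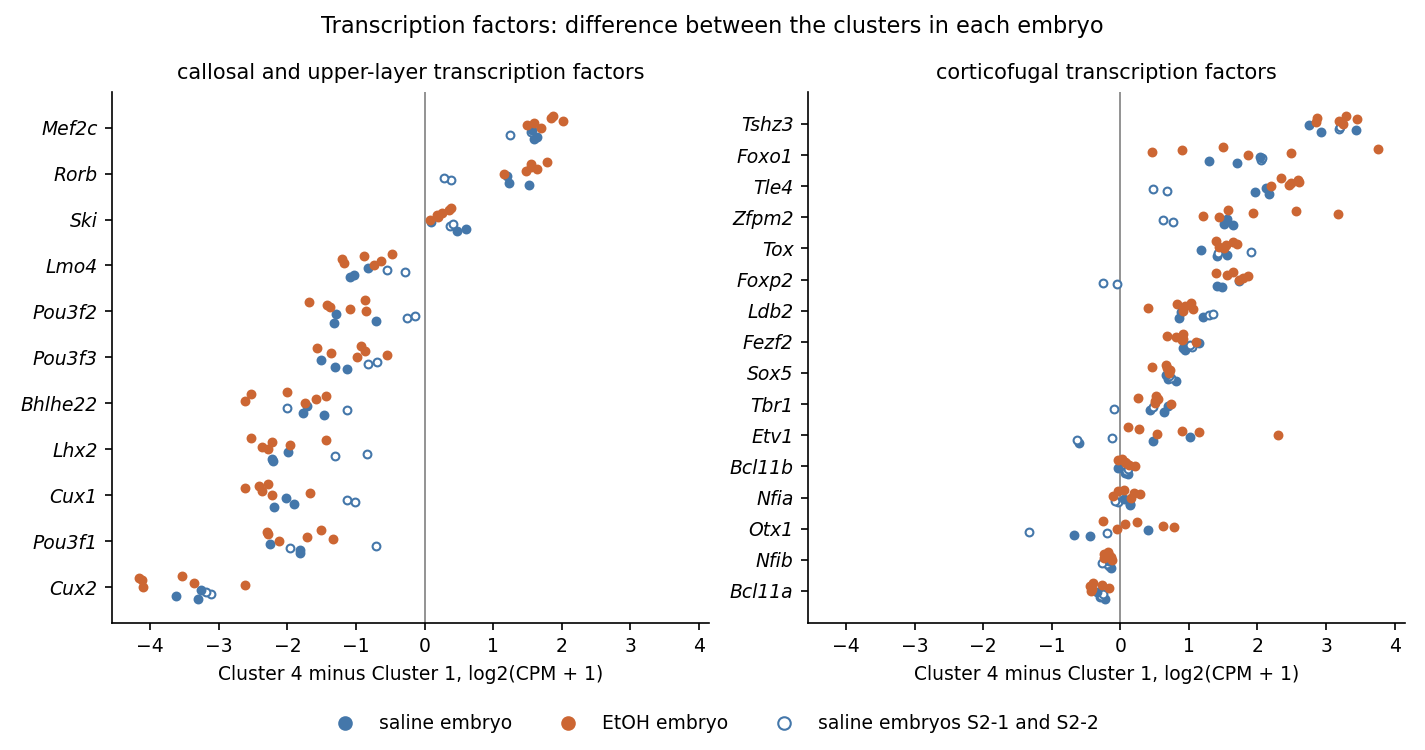
Difference between clusters for 11 callosal and upper-layer and 16 corticofugal transcription factors, as log2(CPM + 1) in Cluster 4 minus that in Cluster 1, with a point for each of 11 embryos and open circles for S2-1 and S2-2. Cux2 lies farthest to the Cluster 1 side and Tshz3 farthest to the Cluster 4 side, while Foxp2 in S2-1 and S2-2 falls on the Cluster 1 side of 0.

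The 250 bases before the start of 4 of these genes are printed because the genes mark either end of the comparison: Fezf2 names the subcortical clusters, Tshz3 and Hs3st3b1 had large differences toward Cluster 4, and Cux2 toward Cluster 1. They come from RefSeq on build GRCm38.p6 and are written from 5′ to 3′ on the strand of the gene. Fezf2 stands at chr14:12345866-12346115 on the minus strand, Tshz3 at chr7:36697868-36698117 on the plus strand, Hs3st3b1 at chr11:63922285-63922534 on the minus strand and the outermost of the 2 listed starts of Cux2 at chr5:122049852-122050101 on the minus strand. Capitals mark the octamer ATGCAAAT that POU factors bind, here on the opposite strand as ATTTGCAT, the only one of 3 searched motifs in these 4 stretches.
Fezf2: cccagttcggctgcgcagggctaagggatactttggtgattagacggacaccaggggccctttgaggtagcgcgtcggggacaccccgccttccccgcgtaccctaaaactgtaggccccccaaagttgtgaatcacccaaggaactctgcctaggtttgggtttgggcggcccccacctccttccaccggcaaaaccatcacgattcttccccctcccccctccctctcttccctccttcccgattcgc
Tshz3: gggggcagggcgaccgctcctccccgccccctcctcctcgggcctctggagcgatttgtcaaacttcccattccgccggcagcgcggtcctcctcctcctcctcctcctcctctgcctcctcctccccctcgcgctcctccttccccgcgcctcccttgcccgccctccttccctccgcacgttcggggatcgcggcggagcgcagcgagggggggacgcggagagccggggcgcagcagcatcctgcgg
Hs3st3b1: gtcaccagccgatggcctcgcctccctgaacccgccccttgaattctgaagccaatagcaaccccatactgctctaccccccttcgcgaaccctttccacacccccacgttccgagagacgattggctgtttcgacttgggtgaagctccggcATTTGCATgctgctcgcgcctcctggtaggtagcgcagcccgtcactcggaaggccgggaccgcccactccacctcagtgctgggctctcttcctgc
Cux2: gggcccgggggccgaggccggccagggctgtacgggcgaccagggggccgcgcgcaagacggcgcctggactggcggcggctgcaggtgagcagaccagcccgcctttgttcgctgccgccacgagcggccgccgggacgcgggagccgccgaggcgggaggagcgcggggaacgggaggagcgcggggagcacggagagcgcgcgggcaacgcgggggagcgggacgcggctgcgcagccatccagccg
The motifs were searched on both strands and do not overlap one another: CAGATG, a sequence bound by basic helix-loop-helix factors of the neurogenin and Bhlhe22 kind, ATGCAAAT, and TCACACC, bound by T-box factors such as Tbr1. CAGATG was in 14.4% of all 32851 stretches of this length, in 9.77% of those of tested genes, in 10.98% for genes over 2-fold higher in Cluster 4 and in 9.64% for genes over 2-fold higher in Cluster 1. The shares of ATGCAAAT were 1.60%, 1.17%, 0.813% and 1.52%, and those of TCACACC 3.33%, 2.59%, 2.44% and 2.54%. Promoters were matched for 8235 of the 10884 tested genes, 498 of the 714 over 2-fold higher in Cluster 4 and 142 of the 216 over 2-fold higher in Cluster 1. A match is a description of the letters and not evidence of binding.

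Among genes with the same direction in 11 of 11 embryos and at least 10 CPM in the higher cluster, the largest difference was that of Gm28928, a long intergenic non-coding RNA at chr1:124505757-124846039. It ranged from 0 to 5.25 CPM in Cluster 1 and from 7.12 to 374.2 CPM in Cluster 4, with medians of 1.78 and 271.0 CPM. The lowest Cluster 4 levels came from S2-2 (7.12 CPM) and S2-1 (19.8 CPM), below the 129.7 CPM or more of the other 9 embryos, and the log2 difference was 6.49 ± 0.19 (edgeR adjusted p = 8.78e-11). Hs3st3b1, which encodes a heparan sulfate 3-O-sulfotransferase, ranged from 0 to 2.74 CPM in Cluster 1 and from 80.9 to 130.5 CPM in Cluster 4, with medians of 1.18 and 97.5 CPM. Its log2 difference was 6.36 ± 0.15 (edgeR adjusted p = 4.80e-17), and Cluster 4 had the highest mean of the 25 clusters.

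The next genes toward Cluster 4 were Gm27166 (6.00), a non-coding RNA, Abca8a (5.22, and 5.48 without S2-1 and S2-2), an ABC transporter, and Pdzd2 (5.16), a PDZ-domain protein. Pdzd2 had a mean of 10.3 ± 3.2 CPM in Cluster 1, against 333.7 ± 105.2 CPM in Cluster 4. They were followed by Tll2 (5.11), a tolloid-like metalloprotease, Hs3st2 (4.97), a second 3-O-sulfotransferase, 4933432K03Rik (4.54), Gm29530 (4.52) and Grik3 (4.51), a kainate-type glutamate receptor subunit. 4933432K03Rik overlaps Hs3st2 and Gm29530 overlaps Rgs6 on the opposite strand, so their reads cannot be told apart where counting did not use strand, which the sources used here do not give. Grik3 ranged from 29.7 to 54.7 CPM in Cluster 1 and from 749.8 to 1002.8 CPM in Cluster 4, with medians of 43.9 and 897.9 CPM. Every embryo was far above its own Cluster 1 level, and the edgeR adjusted p was 4.90e-15.

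The 6 genes of the heparan sulfate 3-O-sulfotransferase family present in these data were looked up after these values had been seen. The enzymes add a rare sulfate to heparan sulfate chains on the cell surface, where many guidance and growth factors bind. Of the 5 tested, Hs3st2, Hs3st3b1, Hs3st4 and Hs3st5 were higher in Cluster 4 and Hs3st1 in Cluster 1, beside 19.5% and 14.1% of all tested genes. Hs3st3a1 was too low to be tested. Hs3st2 had its highest mean of all clusters in the callosal Cluster 22, at 290.4 CPM, against 133.0 CPM in Cluster 4. Hs3st4, also a marker of subplate and layer 6 neurons, ranged from 153.4 to 259.4 CPM in Cluster 1 and from 1151.4 to 3432.8 CPM in Cluster 4, with medians of 182.8 and 3028.1 CPM. S2-1 (1151 CPM) and S2-2 (1214 CPM) were the lowest in Cluster 4, and the log2 difference of 3.90 ± 0.26 (edgeR adjusted p = 1.82e-07) became 4.21 without them. Hs3st5 differed by 1.15 and Hs3st1 by -1.27, with 58.9 ± 7.79 CPM in the callosal and 21.8 ± 3.94 CPM in the subcortical nuclei.

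Toward Cluster 1 the largest differences were those of Gm13403 (-3.90), a non-coding RNA, Gm43948 (-3.73), antisense to Pdzrn3, and Cux2. Gm43948 also overlaps a measured gene on its own strand, Gm43950, from which strand cannot separate its reads. Cemip (-3.25), a hyaluronan-binding protein, Wwc1 (-3.11), a scaffold of Hippo signalling also called KIBRA, Adamtsl3 (-2.91), an extracellular matrix protein, and 1700080N15Rik (-2.88), antisense to Frmd4a, came next. Wwc1 ranged from 494.2 to 678.8 CPM in Cluster 1 and from 39.3 to 74.8 CPM in Cluster 4, with medians of 545.5 and 57.1 CPM. Its Cluster 1 levels were even across embryos, and it was 8.63-fold higher there (edgeR adjusted p = 9.55e-11).

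The other 3 of the 10 were receptors of axon guidance and migration. Robo2, a receptor for Slit proteins, ranged from 2967.8 to 6557.4 CPM in Cluster 1 and from 447.8 to 899.8 CPM in Cluster 4, with medians of 5043.2 and 599.1 CPM. No embryo overlapped (log2 -2.77 ± 0.07, edgeR adjusted p = 4.64e-12). Unc5d, a netrin and FLRT receptor of migrating upper-layer neurons, was 1661.7 ± 416.1 CPM in Cluster 1, against 208.3 ± 65.6 CPM in Cluster 4 (log2 -2.83). Nrp1, a semaphorin co-receptor of callosal axons, was lowest in Cluster 1 in S2-1 (184 CPM) and S2-2 (137 CPM), with a median over all embryos of 610.0 CPM. In Cluster 4 it lay between 38.6 and 94.9 CPM, and its log2 difference of -2.88 ± 0.21 (edgeR adjusted p = 3.83e-07) became -3.14 without S2-1 and S2-2.

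The guidance families had members on both sides, and their counts stand beside the 19.5% of all tested genes higher in Cluster 4 and the 14.1% higher in Cluster 1. Of 18 tested genes for Slits, Robos, netrins, their receptors and repulsive guidance molecules, 7 were higher in Cluster 4 and 5 in Cluster 1, with a median of 0.20. Toward Cluster 4 these were led by Unc5c (2.02, and 2.34 without S2-1 and S2-2), a netrin receptor, Slit1 (1.90), a repulsive ligand, and Rgma (1.54), a repulsive guidance molecule. Slit1 ranged from 61.1 to 267.1 CPM in Cluster 1 and from 280.3 to 430.6 CPM in Cluster 4, without overlap. The 3 Slit ligands of the Robo receptors did not share a direction: Slit3 (0.99) was also higher in Cluster 4, and Slit2 (-0.68) was higher in Cluster 1. Unc5c lost its call in saline embryos alone (1.39, edgeR adjusted p = 0.0583). Ntng2 (netrin-G2) differed by -0.90. The netrin receptor Dcc, at -0.12, was not called.

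Of 16 tested Eph receptors and ephrins, 4 were higher in Cluster 4 and 5 in Cluster 1 (median -0.14), and the count toward Cluster 4 was near the 19.5% of all genes. Ephb1 was 211.6 ± 33.4 CPM in Cluster 1, against 928.9 ± 70.0 CPM in Cluster 4 (log2 2.31), followed by Epha6 (0.97) and Epha7 (0.76). In saline embryos alone these last genes were not called, at 0.65 and 0.41 (edgeR adjusted p = 0.200 and 0.170). Epha3 led on the other side, from 2780.3 to 3410.7 CPM in Cluster 1 and from 875.5 to 1072.2 CPM in Cluster 4, with medians of 3198.4 and 960.8 CPM. Its ranges were narrow and far apart (log2 -1.52 ± 0.04, edgeR adjusted p = 3.01e-21). The ligand Efnb2 differed by -0.94 and the receptor Epha5 by -0.85.

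Of 27 tested semaphorins, plexins and neuropilins, 11 were higher in Cluster 4 and 10 in Cluster 1 (median -0.22). The ligands Sema3e (1.91), Sema6a (1.72) and Sema3f (1.24) led toward Cluster 4. Toward Cluster 1, after Nrp1, Plxna4, a semaphorin receptor that pairs with neuropilins, was 3532.5 ± 441.1 CPM against 637.3 ± 290.6 CPM (log2 -2.39), and the ligand Sema3c differed by -1.89. Both semaphorin co-receptors were on the Cluster 1 side, Nrp2 at -1.10.

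**Figure D3:**
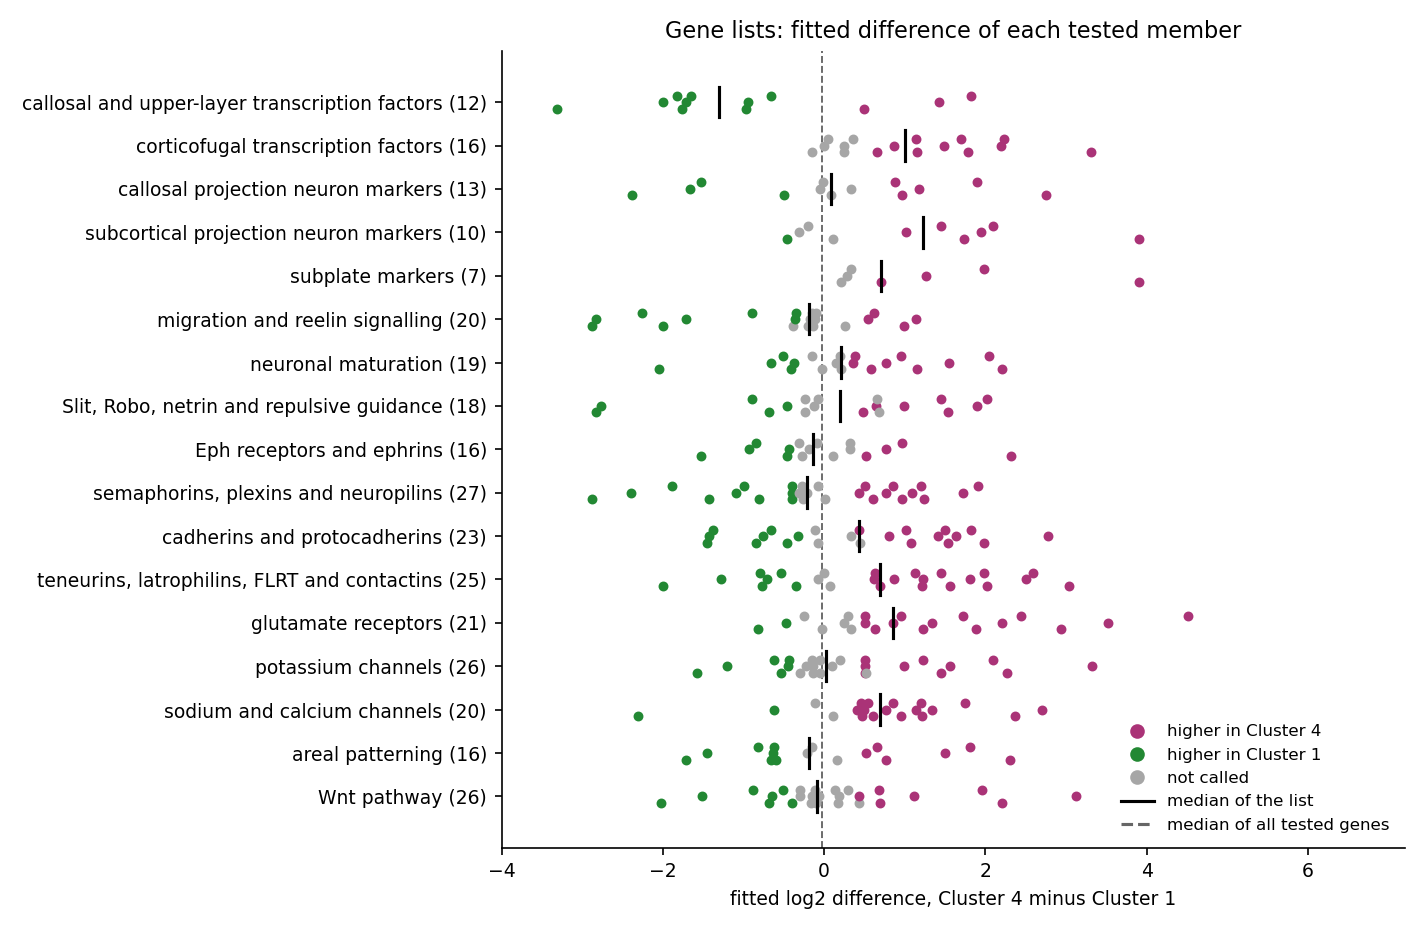
Fitted log2 difference, Cluster 4 minus Cluster 1, of every tested member of 17 gene lists, with a black bar at each list's median and a dashed line at the median of all 10884 tested genes. The callosal transcription factors have the lowest median (-1.31) and the subcortical markers (1.23) and corticofugal transcription factors (1.00) the highest, while guidance families spread to both sides.

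Adhesion genes were read beside the background of 19.5% of all genes higher in Cluster 4 and 14.1% higher in Cluster 1. Of 23 tested cadherins and protocadherins, 11 were higher in Cluster 4 and 8 in Cluster 1 (median 0.44). Cdh9 (2.78), Cdh18 (1.98) and Cdh7 (1.83) led on the one side and Cdh8 (-1.45), Pcdh18 (-1.42) and Pcdh8 (-1.38) on the other. Without S2-1 and S2-2 the first of these were 3.08 (Cdh9), 2.36 (Cdh18) and 2.11 (Cdh7), and Cdh18 was not called in saline embryos alone (1.44, edgeR adjusted p = 0.0830). Of 25 tested teneurins, latrophilins, FLRT proteins and contactins, which bind across the synaptic cleft or along axons, 15 were higher in Cluster 4 and 7 in Cluster 1 (median 0.69). Cntn5 (3.04), Cntn1 (2.59) and Cntnap4 (2.502) were the largest toward Cluster 4. Cntn2 (TAG-1), found on growing axons and migrating neurons, was 490.8 ± 70.7 CPM in Cluster 1, against 109.3 ± 21.5 CPM in Cluster 4 (log2 -1.99). Flrt3 (-1.28) and Adgrl3 (-0.80) were next toward Cluster 1.

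Of 21 tested glutamate receptor genes 14 were higher in Cluster 4, beside 19.5% of all tested genes, and 2 in Cluster 1, beside 14.1% (median 0.85). After Grik3 the largest were the metabotropic receptors Grm7 (3.52) and Grm5 (2.94). Grin2b, the NMDA receptor subunit of immature neurons, ranged from 363.7 to 502.2 CPM in Cluster 1 and from 1660.7 to 1915.5 CPM in Cluster 4, with medians of 460.4 and 1825.0 CPM. Each embryo had about the same difference (log2 2.20 ± 0.03, edgeR adjusted p = 1.46e-26). The AMPA receptor subunit Gria2 (-0.82) and the kainate subunit Grik4 (-0.47) were higher in Cluster 1, the latter not called in saline embryos alone (-0.32, edgeR adjusted p = 0.139).

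Of 20 tested sodium and calcium channel genes, 16 were higher in Cluster 4 and 2 in Cluster 1 (median 0.69), where all tested genes had 19.5% and 14.1%. The T-type channel Cacna1i (2.70), the R-type Cacna1e (2.37) and the L-type Cacna1d (1.74) led. The sodium channel Scn1a went the other way, at 122.4 ± 30.9 CPM in Cluster 1, against 21.8 ± 4.87 CPM in Cluster 4 (log2 -2.31 ± 0.12, edgeR adjusted p = 2.98e-09), as did the calcium channel subunit Cacna2d1 (-0.62). Of 26 tested potassium channel genes and their subunits, 10 were higher in Cluster 4 and 6 in Cluster 1 (median 0.03, and -0.15 with total-UMI scaling), beside the same 19.5% and 14.1%. Kcnip4 (3.32), a cytoplasmic partner of A-type channels, and Kcna4 (2.26) led toward Cluster 4, and Kcnc2 (-1.58), Kcnk2 (-1.20) and Kcnd3 (-0.62) toward Cluster 1.

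Of 19 tested genes of neuronal maturation, 9 were higher in Cluster 4 and 5 in Cluster 1 (median 0.21), with 19.5% and 14.1% over all tested genes. Grin2b, Camk2b (2.04), a calcium-dependent kinase, and Syt1 (1.55), the calcium sensor of vesicle release, led toward Cluster 4. Slc17a6 (VGLUT2), a vesicular glutamate transporter, ranged from 78.2 to 112.5 CPM in Cluster 1 and from 8.66 to 33.9 CPM in Cluster 4, with medians of 96.7 and 19.9 CPM. It did not overlap (log2 -2.05 ± 0.14, edgeR adjusted p = 1.55e-07), whereas the related transporter Slc17a7 (VGLUT1) differed by 0.38 toward Cluster 4. Rbfox3 (NeuN, -0.66) and the differentiation factor Neurod2 (-0.51) were higher in Cluster 1.

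Of 20 tested genes of migration and reelin signalling, 4 were higher in Cluster 4, a share near the 19.5% of all tested genes, and 8 in Cluster 1, against 14.1% of all (median -0.19). After Nrp1 and Unc5d, the small GTPase Rnd2 (-2.26), which acts in the multipolar stage of migration, had the largest difference. The reelin receptor Vldlr (1.00), its adaptor Dab1 (0.55), the GTPase regulator Rap1gap (1.14) and Rnd3 (0.62) were higher in Cluster 4, and the reelin receptor Lrp8 (ApoER2) was higher in Cluster 1 (-0.35). With total-UMI scaling 11 genes of the list were higher in Cluster 1, beside 3389 of all 10884 tested genes under that scaling. Dcx, the microtubule protein of migrating neurons (-0.17), was not called.

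Markers taken from studies of callosal and subcortical neurons were counted beside the 19.5% of all tested genes higher in Cluster 4 and the 14.1% higher in Cluster 1. Of 13 tested callosal markers, 4 were higher in Cluster 1 and 5 in Cluster 4 (median 0.09, and -0.08 with total-UMI scaling). Limch1, an actomyosin regulator, was 571.2 ± 102.2 CPM in Cluster 1, against 96.0 ± 13.7 CPM in Cluster 4 (log2 -2.39), and Inhba, an activin subunit, differed by -1.66 (-2.10 without S2-1 and S2-2). The neurturin receptor Gfra2 (2.75), the lipase Lpl (1.89) and Tmtc4 (1.17) were higher in Cluster 4. Of 10 tested subcortical markers, 6 were higher in Cluster 4 and 1 in Cluster 1 (median 1.23). Behind Hs3st4, Syt6 (2.10), a synaptotagmin, and Ntsr1 (1.95), the neurotensin receptor known from corticothalamic neurons, were the largest, and Ephb6 (-0.46) was the exception. Of 7 tested subplate markers, genes of the earliest-born deep cortical neurons, 4 were higher in Cluster 4 and none in Cluster 1 (median 0.70). These 4 were Hs3st4, already counted among the subcortical markers, Cdh18 (1.98), Inpp4b (1.27) and Svil (0.70). Nr4a2, Nxph4 and Lpar1 were not called, and Ctgf, Cplx3, Moxd1 and Trh were too low to be tested.

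Of 16 tested areal patterning genes, 6 were higher in Cluster 4 and 7 in Cluster 1 (median -0.18), against 19.5% and 14.1% of all tested genes. Lmo3 (2.30), Etv5 (1.81), an ETS factor of FGF signalling, and Cdh6 (1.498) were on the Cluster 4 side. Emx1 (-0.82), Emx2 (-0.63) and the nuclear receptors Nr2f1 (-0.60) and Nr2f2 (-0.63) were on the Cluster 1 side with Bhlhe22 and Cdh8. Of 26 tested Wnt pathway genes, 7 were higher in each cluster (median -0.08), and the share toward Cluster 4 was not far from that of all genes. The planar cell polarity proteins Prickle1 (3.12) and Prickle2 (2.20) and the ligand Wnt7a (1.95) were higher in Cluster 4, and Lef1, the transcription factor of canonical Wnt signalling (-2.02), the receptor Fzd1 (-1.51) and the ligand Wnt5a (-0.88) were higher in Cluster 1. Prickle1 was 83.6 ± 17.4 CPM in Cluster 1, against 652.9 ± 143.8 CPM in Cluster 4.

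The same genes were described in the other projection neuron clusters. Cluster 22 was the other callosal cluster (557 nuclei), Cluster 16 the caudal subcortical cluster (1132 nuclei) and Cluster 9 early projection neurons (2457 nuclei). The mean level was higher in Cluster 16 than in Cluster 22 for 34.0% of the genes higher in Cluster 4 and for 78.3% of those higher in Cluster 1, against 57.8% of all tested genes. For most of these genes the means of this second subcortical and callosal pair were thus in the opposite order. Mef2c was one of them, with 245.9 CPM (Cluster 16) and 872.1 CPM (Cluster 22). The corticofugal factors Tshz3 (155.2 and 571.8 CPM), Ldb2 (463.2 and 1267.5 CPM) and Tle4 (186.3 and 396.2 CPM) were others, as were Tbr1, Foxp2 and Tox. Fezf2 kept the order of the labels, with 68.0 and 20.3 CPM, as did Zfpm2 and Foxo1, while Sox5 was nearly level (5259.2 and 5126.4 CPM). Among the listed factors higher in Cluster 1, Cux2 (47.7 and 79.6 CPM), Cux1 and Pou3f3 kept the order. Lhx2 (150.9 and 17.8 CPM), Lmo4 (132.2 and 50.1 CPM) and Bhlhe22 (39.1 and 3.93 CPM) were in the opposite order. Pou3f1 (3.02 and 2.08 CPM) and Pou3f2 (9.65 and 8.47 CPM) were too, by small margins. Cluster 9 exceeded Cluster 4 for 94.7% of the genes higher in Cluster 1 and for 8.35% of those higher in Cluster 4, against 66.7% of all tested genes. Cluster 9 had the highest mean of all clusters for Robo2 (8880.3 CPM), Nrp1 (1725.7 CPM) and Wwc1 (679.8 CPM). These are descriptions of means, since the clusters were formed on the same genes.

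**Figure D4:**
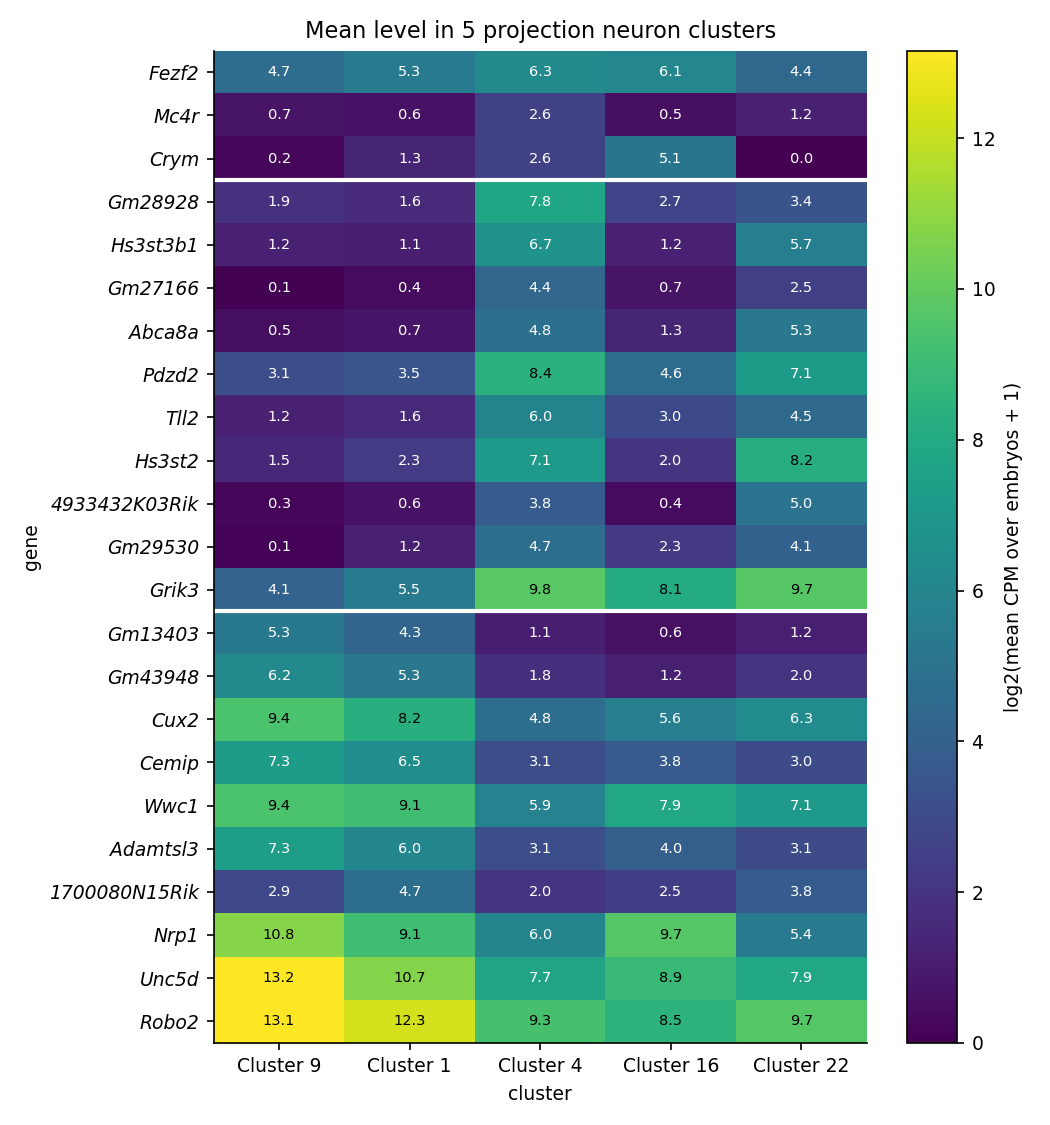
Mean level of 23 genes in 5 projection neuron clusters (9, 1, 4, 16 and 22), as log2(mean CPM + 1) over embryos, printed in each cell. Fezf2 is highest in Clusters 4 and 16, while several genes that are high in Cluster 4 are also high in Cluster 22.

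Markers of other cell types were present at low levels in both clusters, and their calls stand beside 19.5% of all tested genes higher in Cluster 4 and 14.1% higher in Cluster 1. The summed level of 8 radial glia markers was 67.3 to 127.5 CPM in Cluster 1 and 128.7 to 180.8 CPM in Cluster 4, and 1199 to 1618 CPM in the radial glia of Cluster 12. In Cluster 4 most of it came from Slc1a3 (1.40), and 2 of the 5 tested markers were higher in Cluster 4 and 2 in Cluster 1. The sum of 8 interneuron markers was 53.5 to 210.8 CPM in Cluster 1 and 53.0 to 250.9 CPM in Cluster 4, against 3331 to 4431 CPM in Cluster 5. All 4 tested interneuron markers were higher in Cluster 4, and 1 of them with total-UMI scaling, beside 1495 of all 10884 tested genes under that scaling. Without S2-1 and S2-2 the interneuron marker Dlx6os1 (0.52, edgeR adjusted p = 0.0714) and the radial glia marker Fabp7 (-0.27, edgeR adjusted p = 0.117) were not called. 3 of the 4 tested proliferation markers were higher in Cluster 4, 2 of the 4 tested intermediate progenitor markers in Cluster 1 and 1 in Cluster 4, and 1 of the 3 tested striatal markers in Cluster 4. 2 of the 4 tested thalamic markers and 1 of the 3 tested non-neural markers were higher in Cluster 1, and the 1 tested Cajal-Retzius marker, Reln, was not called. Gbx2, a thalamic marker, was at 0 in 9 of 11 embryos in each cluster. Their part in the cluster differences was not tested.

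The balance of the clusters and their depth were then compared between treatments. The authors formed the clusters after a correction for batch and dam. Each dam had 1 treatment, so that correction was not independent of treatment. The ratio of Cluster 4 to Cluster 1 nuclei in the saline group was 0.807 ± 0.119 (SD, n = 5), from 0.695 to 0.955, and in the EtOH group 0.988 ± 0.218 (SD, n = 6), from 0.715 to 1.249. The ranges overlapped, and the log2 difference of 0.274 between the means did not pass a two-sided exact permutation test over 462 splits of the embryos (p = 0.139), nor with labels exchanged within batches (exact p = 0.176, 210 splits). Within batch 1 the difference was 0.225 (exact p = 1) and within batch 2 it was 0.301 (exact p = 0.2). In batch 1, with 2 embryos a treatment, the test cannot go below 0.333. Without S2-1 and S2-2 it was 0.179 (exact p = 0.429). The authors had removed 1 saline sample for its distribution over the clusters, a measure related to this ratio.

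The median nucleus of Cluster 4 held more UMIs than that of Cluster 1 in each of the 11 embryos, by 1.31- to 1.56-fold. Saline embryos averaged a fold of 1.46 ± 0.0784 (SD, n = 5), and EtOH embryos one of 1.38 ± 0.0563 (SD, n = 6). The difference in log2 fold was -0.0766 (exact permutation p = 0.0996), with -0.104 within batch 1 (exact p = 0.333) and -0.0585 within batch 2 (exact p = 0.4). These tests and the interaction fit of the next paragraphs take littermates as independent. With means per dam, 2 dams a treatment, the differences were 0.263 in log2 nuclei ratio and -0.0815 in log2 fold of UMIs (exact permutation p = 0.333 each, the smallest this design allows).

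The difference between the clusters was compared between EtOH and saline embryos with a cluster by treatment term in the edgeR fit. Of 10884 genes, 1 was called (0.00919%), and 730 (6.71%) had an unadjusted p under 0.05, while DESeq2 called 8. The count depended on the embryos and settings, with 12 genes without S2-4, 5 without E2-1, 3 without S1-2 or E2-4, 18 with counts summed per dam, 44 in batch 1 alone, 6 in batch 2 alone and 86 with no filter on low counts. The gene was Nhs, on the X chromosome (chrX:161833296-162159730, minus strand), which encodes a regulator of actin remodelling and the cell periphery. In Cluster 1 its level was 51.5, 35.3, 47.8, 63.5 and 24.2 CPM in saline embryos S1-1, S1-2, S2-1, S2-2 and S2-4. In EtOH embryos E1-1, E1-2, E2-1, E2-2, E2-3 and E2-4 it was 11.4, 14.4, 20.3, 14.0, 8.68 and 11.1 CPM. Every saline embryo lay above every EtOH embryo in Cluster 1.

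In Cluster 4 Nhs was 26.04 to 55.5 CPM in saline and 26.1 to 39.3 CPM in EtOH embryos, with overlap. The log2 difference, Cluster 4 minus Cluster 1 on the log2(CPM + 1) scale, was -0.38 to 0.21 in saline and 0.56 to 1.78 in EtOH embryos, without overlap. The fitted interaction was 1.32 ± 0.18 (edgeR adjusted p = 0.00119), 1.24 without S2-1 and S2-2 (0.00199), 1.29 with counts summed per dam (0.00171), 1.37 in batch 1 alone (0.0125) and 1.28 in batch 2 alone, where it was not called (0.0778). The call was lost without the embryo block, with a value of 1.34.

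Nhs in Cluster 1 had the lowest mean of all 25 clusters, and its highest mean was 690.8 CPM in the radial glia of Cluster 2. In Cluster 2 it was 689.6 to 735.3 CPM in saline and 615.8 to 737.8 CPM in EtOH embryos, with overlap. The summed level of the 8 radial glia markers in Cluster 1 was 81.4 to 127.5 CPM in saline and 67.3 to 106.2 CPM in EtOH embryos, with only Hes1 at 0, in 1 embryo. The 8 interneuron markers summed there to 68.2 to 210.8 and 53.5 to 114.3 CPM, the 7 striatal markers to 67.0 to 190.3 and 28.9 to 77.8 CPM, and the 6 Cajal-Retzius markers to 171.6 to 440.1 and 94.0 to 213.5 CPM. The 6 proliferation markers summed to 40.8 to 121.6 CPM in saline and 20.3 to 58.97 CPM in EtOH embryos, with none at 0 in Cluster 1, and the 5 intermediate progenitor markers to 33.1 to 55.3 and 21.1 to 36.5 CPM. Of these, the markers at 0 in the most Cluster 1 embryos were Dlx5 (2 embryos), Drd1, Drd2 and Neurog1 (4 each) and Lhx1 (5). Median UMIs per Cluster 1 nucleus were 6137 to 8665 in saline and 3987.5 to 6463 in EtOH embryos. Nhs also overlaps Gm15202 on the other strand. The part of these in the Nhs result was not tested.

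The genes next in order among those whose difference moved toward Cluster 4 after EtOH missed the threshold. In the other direction the 5 genes with the smallest interaction p were Slc44a5, Shb, Zfp608, Chst11 and Fnip2, and none was called. Gm28928, the gene with the largest difference between clusters, had an interaction of 1.82 (edgeR adjusted p = 0.0748), with 7.12 to 288.1 CPM in Cluster 4 of saline and 129.7 to 374.2 CPM in EtOH embryos. Without S2-1 and S2-2 it was 1.71 and passed the threshold (edgeR adjusted p = 0.0290). It also passed with counts summed per dam (edgeR adjusted p = 0.0191), but in neither batch alone (0.0722 in batch 1 and 0.382 in batch 2). With single embryos left out it passed without S2-1, S2-4, E2-1 or E2-3 and missed the threshold without any of the others. Gli3 (0.80), a transcription factor of hedgehog signalling, Sema6a (0.62) and Sox6 (0.41), an SRY-box factor of interneurons and progenitors, each had an adjusted p of 0.0911. In Cluster 1, Gli3 was 49.1 to 99.9 CPM in saline and 20.7 to 36.7 CPM in EtOH embryos, and Sox6 139.6 to 274.3 and 67.3 to 131.1 CPM, both without overlap. Sema6a was 56.4 to 112.5 and 43.9 to 57.2 CPM, with overlap. The highest means of these 3 genes were in Cluster 12 radial glia for Gli3 (1823.7 CPM), Cluster 14 Cajal-Retzius cells for Sema6a (1454.6 CPM) and Cluster 5 interneurons for Sox6 (3487.4 CPM), and Cluster 1 ranked 23, 25 and 23 of 25 for them.

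**Figure D5:**
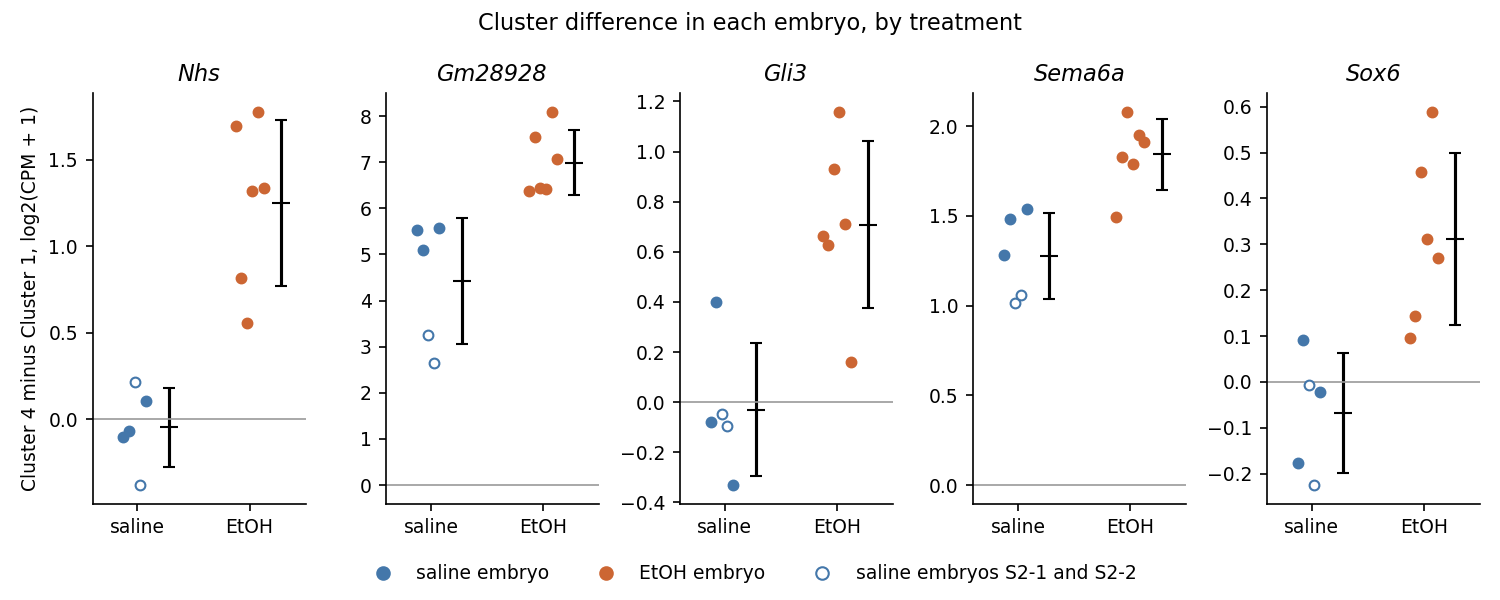
Difference between clusters, log2(CPM + 1) in Cluster 4 minus Cluster 1, for 5 genes in 5 saline and 6 EtOH embryos, with points for embryos, bars for mean ± SD and open circles for S2-1 and S2-2. For Nhs the saline embryos lie from -0.38 to 0.21 and the EtOH embryos from 0.56 to 1.78. Only genes whose difference moved toward Cluster 4 after EtOH are drawn.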

How the data were processed

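Nuclei of cortices were captured with the 10x Genomics 3′ kit, and Cell Ranger was run by the authors against mm10. They then removed low-quality nuclei and sex-specific and mitochondrial genes, and clustered the nuclei in Seurat after correction for batch and dam with Harmony. The deposited tables hold raw UMI counts per gene and nucleus for each embryo and cluster, without normalization. The version of Cell Ranger and the strand counted are not given in the sources used here, and doublets were not called here. The 275 tables of 11 embryos and 25 clusters were summed per embryo and cluster in Python 3.11.15 with NumPy 2.4.6 and pandas 2.3.3. Sums of Clusters 1 and 4 (1.38193e+06 to 8.91084e+06 UMIs) were tested in R 4.3.3 with edgeR 4.0.16: filterByExpr, TMM factors and a robust quasi-likelihood fit with embryo as block, thresholds of adjusted p under 0.05 and a log2 difference above 0.32 or below -0.32, the fold thresholds of the study. The treatment fit added a cluster by treatment term. DESeq2 1.42.0 was an alternative. Both clusters came from the same animal, and each embryo's deviations from the mean of all 11 embryos correlated between them at 0.161 to 0.654. Nuclei numbers and UMI depth were tested by two-sided exact permutation over embryos. The fits were tested on simulated counts before use. Figures were drawn with matplotlib 3.10.9.

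The members and gene lists were chosen with earlier results of these data known. Genes were named by a fixed rule: every member of both transcription factor lists and the label markers, the 10 largest differences per direction with at least 10 CPM and the same direction in 11 of 11 embryos, up to 3 called members per direction of each other list, the highest member of each list of other cell types, and up to 5 genes per direction with the smallest interaction p. A few named genes are left unreported. Other members named in the text, the 3-O-sulfotransferase family among them, were chosen after their values were seen. Of the 149 genes under the rule, 59 overlap a measured gene on the other strand and 1 on the same strand. Alternatives were RLE factors, no low-count filter, nuclei thinned to 2000 UMIs, nuclei above the 95th percentile of UMIs left out, no block, sums per dam, each batch, each treatment, each embryo left out and other fold thresholds, with total-UMI scaling and the removal of S2-1 and S2-2 added after seeing the data. S2-3 was not analysed here.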

Additional observations from a re-analysis of the deposited data

Results flagged for a closer look

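In 302 groups of per-embryo differences, 16 (5.30%) held an embryo far from the others of its treatment by Dixon's criterion, which chance alone gives in about 1 of 20 groups. Values are log2(CPM + 1) in Cluster 4 minus Cluster 1. Among saline embryos, S2-1 or S2-2 gave 5 of the 16. S2-2 had -0.71 for Pou3f1 (others -2.26 to -1.81), -4.02 for Adamtsl3 (-2.99 to -2.74) and -1.07 for Grik4 (-0.41 to -0.18). S2-1 had 1.254 for Mef2c (others 1.55 to 1.64) and -0.97 for Cdh8 (-1.71 to -1.499). S1-1 had 3.35 for Hs3st2 (others 4.69 to 5.13) and 1.77 for Cntnap4 (2.25 to 2.40).

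Among EtOH embryos, E2-3 was apart for 5 genes: 0.47 for Sox5 (others 0.67 to 0.73), 3.07 for Cntn1 (2.21 to 2.43), -1.41 for Vim (-0.67 to -0.23), 2.90 for Top2a (0.60 to 1.40) and 1.07 for Mki67 (-0.10 to 0.19). Top2a and Mki67 are proliferation markers and Vim a radial glia marker, and E2-3 had the fewest Cluster 1 nuclei, 209. E2-1 had 0.40 for Ldb2 (others 0.83 to 1.06), E2-4 had 3.55 for Unc5c (2.08 to 2.495), E2-2 had -1.89 for Pcdh18 (-1.26 to -0.98) and E1-1 had 2.68 for Prickle1 (3.10 to 3.32).

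Nhs differed between treatments, its Cluster 4 minus Cluster 1 log2 difference being 1.32 higher in EtOH than in saline embryos (edgeR adjusted p = 0.00119). Its level in Cluster 1 was the lowest of 25 clusters.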

How the results depend on the processing

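The 2121 genes higher in Cluster 4 became 1250 with nuclei thinned to 2000 UMIs and 714 with a fold of at least 2, and lay between 2006 and 2198 with 1 embryo left out. The 1534 genes higher in Cluster 1 became 3389 with total UMIs, 2977 with no fold threshold and 216 with a fold of at least 2, and lay between 1499 and 1679 with 1 embryo left out. Without the replicate block, in place of the pairing of clusters by embryo, the counts were 1969 and 1373, and the interaction called 0 genes. By construction thinning lowers the counts per gene and total UMIs shift all differences. The cause of the other changes was not tested. Under all alternatives run, each called transcription factor of the lists kept its direction.

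The single gene called for the interaction became 8 with DESeq2, 86 with no filter on low counts, 15 thinned, 12 without nuclei above the 95th percentile of UMIs, 18 with counts summed per dam, 44 in batch 1, 6 in batch 2 and 4 without S2-1 and S2-2. Leaving out 1 embryo gave 1 to 12 genes: 12 without S2-4, 5 without E2-1, 3 without S1-2 or E2-4, 2 without S2-1, E1-1, E1-2 or E2-3, and 1 without the others. Nhs was called in each of these leave-one-out fits and lost the call without the block and in batch 2. Of 229 values recomputed for the interaction of 10 genes, 196 kept their side of the adjusted p threshold, 31 newly passed it (8 genes) and 2 no longer passed it (1 gene). The treatment differences in nuclei ratio (0.200 to 0.361 with 1 embryo left out) and in log2 UMIs (-0.0955 to -0.0514) passed the threshold under no alternative run.

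Of 3460 values recomputed for the cluster differences of 146 named genes, 3344 kept their direction and side of the adjusted p threshold, 81 no longer passed it (21 genes), 20 newly passed it (7 genes) and 15 changed sign (6 genes, none called in the fit reported). Nfib was 0.066 thinned, 0.031 without nuclei above the 95th percentile and 0.0073 in EtOH embryos. Otx1 was -0.125 in batch 1, -0.128 with total UMIs, -0.29 in saline embryos and -0.057 to 0.16 with 1 embryo left out. Mki67 was -0.081 thinned, Reln 0.030 in EtOH embryos, Fnip2 0.072 in saline embryos, and Ebf1 0.0097 in batch 1, 0.045 without S2-1 and S2-2 and 0.33 in EtOH embryos. In saline embryos alone the adjusted p no longer passed for Foxp2 (1.05), Cdh18 (1.44), Unc5c (1.39), Epha6 (0.65), Epha7 (0.41), Grik4 (-0.32), Gli3 (0.12), Sox6 (0.082) and, among markers of other cell types, Rarb (0.84), Kif11 (0.49), Dlx6os1 (0.49), Gad1 (0.47) and Btg2 (0.37). Depth limits sparse genes: at 0 to 59 UMIs per embryo and cluster, Mc4r and Crym could not be tested.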
